A study of Mus musculus with 81 samples.

Results

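The genes described here encode the Toll-like receptors of the cell surface and the proteins that help them bind bacterial lipids in mouse neutrophils: Tlr1, Tlr2, Tlr4, Tlr5, Tlr6, Cd14 and Ly96. They were chosen by gene symbol, and 6 of the 7 were measured, each by 1 probe set, among 19752 named genes on 24922 probe sets. Tlr5 was not analysed here. Neutrophils carrying both CD11b and Ly6G were sorted from the bone marrow of male inbred mice aged 6 weeks, and each of the 81 arrays held RNA pooled from several mice. The titles give 40 groups, 1 per strain. There were 5 arrays of C57BL/6J, 1 of FVB/NJ, 1 of SWR/J and 2 of each of the other 37. The 5 groups of wild-derived mice, by common knowledge of the strain names, were WSB/EiJ, CAST/EiJ, PWD/PHJ, JF1/Ms and MSM/Ms. The other 35, called classical here, were 129S1/SvImJ, A/J, AKR/J, C3H/HeJ, C57BL/10J, C57BL/6J, C57BLKS/J(662), C57L/J (668), CBA/CaJ, CBA/J, CE/J, DDY/JclSidSeyFrkJ, FVB/NJ, KK.Cg-Ay/J (which carries the yellow allele of the agouti gene), LGJ, LP/J(676), MA/MyJ, MRL/MpJ, NOD/ShiLtJ, NON/ShiLtJ, NOR/LtJ, NZB/BINJ, NZW/LacJ, P/J, PL/J, RIIIS/J, SEA/GnJ, SJL/J, SM/J, SWR/J and 5 groups of conflicting labels. The latter are named by title as titled DBA2, titled C57BR, titled Balb, titled BTBR and titled BPL, because their background label names another strain (in that order DBA/1LacJ, CBA/CaJ, BTBR T+ tf/J, BPL/1J and BALB/cByJ). Nothing but the strain differed between groups by the labels.

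Toll-like receptors are membrane proteins that recognise conserved microbial molecules and signal through adaptors such as Myd88 to the transcription factor NF-kB. On the cell surface Tlr2 pairs with Tlr1 or Tlr6 to read bacterial lipoproteins, and Tlr4 reads lipopolysaccharide, the outer membrane lipid of Gram-negative bacteria. Cd14 hands lipopolysaccharide to Tlr4, and Ly96 (MD-2) is the lipid-binding subunit that sits on Tlr4 itself. Neutrophils use these receptors to prime their killing functions and to release chemokines.

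Apart from Cd14, which was not looked up, 4 of the genes had an entry in the RefSeq promoter table of build GRCm38.p6. The 250 bases before the outermost start are shown for the lipoprotein receptors, whose partners Tlr1 and Tlr6 lie next to each other on chromosome 5 and are described together below. Capitals mark matches, on either strand, to 4 motifs of factors active in myeloid cells: PU.1 (GAGGAA), C/EBP (TTGCNNAA), NF-kB (GGG, any 5 bases, CC) and AP-1 (TGANTCA). All are written 5′ to 3′ along the gene's own strand, which is the minus strand for each.
Tlr1, chr5:64933559-64933808: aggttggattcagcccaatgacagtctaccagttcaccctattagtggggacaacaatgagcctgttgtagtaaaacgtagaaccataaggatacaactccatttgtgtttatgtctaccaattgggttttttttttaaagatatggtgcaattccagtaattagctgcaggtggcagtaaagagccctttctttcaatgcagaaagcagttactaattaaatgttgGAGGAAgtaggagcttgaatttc
Tlr6, chr5:64960049-64960298: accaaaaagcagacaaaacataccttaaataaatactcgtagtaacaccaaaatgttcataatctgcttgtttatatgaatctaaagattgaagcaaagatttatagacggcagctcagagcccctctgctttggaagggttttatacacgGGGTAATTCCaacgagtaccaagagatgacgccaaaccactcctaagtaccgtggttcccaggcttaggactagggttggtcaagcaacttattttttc
Tlr2, chr3:83841609-83841858: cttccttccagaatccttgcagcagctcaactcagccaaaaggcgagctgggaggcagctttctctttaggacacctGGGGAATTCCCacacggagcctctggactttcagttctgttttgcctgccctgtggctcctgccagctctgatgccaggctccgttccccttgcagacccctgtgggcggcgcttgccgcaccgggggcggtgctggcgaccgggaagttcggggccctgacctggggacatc
Tlr1 had 1 match, to the PU.1 letters, 18 to 23 bases before the start. Tlr6 had 1 match to the NF-kB letters, 90 to 99 bases before it, and Tlr2 had 3 overlapping matches to the NF-kB letters in the single capital run. Such letters are common: 23.3% of 32851 promoters of the same length held the PU.1 letters, 45.8% the NF-kB letters, 9.56% the C/EBP letters and 6.75% the AP-1 letters. The motifs were chosen after expression values were seen, and a match in the reference sequence is not a bound site.

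All values below are log2 intensities, so a difference of 1 is 2-fold, and each is compared only within its own probe set. Each difference carries a standard error (SE), and p-values were adjusted by Benjamini and Hochberg over all 24922 probe sets in limma. Array medians lay between 97.2 and 114.8 intensity units. Within groups the lowest correlation between arrays was 0.976 in NZB/BINJ, followed by 0.986 in C57L/J (668) and 0.988 in MSM/Ms. The sorted cells carried neutrophil transcripts at a high and even level: the mean of 12 neutrophil markers lay between 13.27 in titled BTBR and 13.41 in SEA/GnJ. These 12 genes averaged between 12.66 and 13.66, near the highest probe set mean of 14.10. Whether differences between strains are compressed at that brightness was not tested. The mean of 14 monocyte and macrophage markers varied over a wider range than the neutrophil marker mean, from 6.65 in FVB/NJ to 7.40 in titled BTBR. So did the mean of 14 cell cycle genes, from 6.86 (NOR/LtJ) up to 9.53 (NON/ShiLtJ). Where the amount of a transcript in the sorted pool differs, fewer cells expressing it and less RNA per cell cannot be told apart. The labels do not say whether the arrays of a group came from separate sorts, so p-values measure the spread between these arrays.

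The first comparison asked how far each gene differs among the strains. The moderated F test of limma called all 6 measured genes, and each had a range of at least 2-fold between its lowest and highest strain mean. Of all probe sets 56% were called and 24.5% were called with a 2-fold range, and among the 10816 with a mean of at least 7 the shares were 84.9% and 42.5%, so a called test alone is common here. Cd14 varied most, with a 25.1-fold range (adjusted p = 1.1e-26, limma); the SD of its strain means was 1.40. Tlr1 spanned 8.65-fold (adjusted p = 5.0e-22), Ly96 7.08-fold (adjusted p = 2.4e-13) and Tlr6 4.02-fold (adjusted p = 2.9e-18). The lowest means of Cd14 and Tlr1 lay in the range of genes of other tissues, where signal can be background, so their folds are ratios of array signal and not exact ratios of transcript. Tlr2 and Tlr4, the receptors that the others serve or pair with, had the narrowest ranges at 2.38-fold (adjusted p = 2.2e-07) and 2.42-fold (adjusted p = 1.7e-04). Over the 6 genes the median SD of strain means was 0.57, against 0.14 over all probe sets. The share of variance lying between strains was 95.7% for Cd14, 93.4% for Tlr1, 90.4% for Tlr6, 82.5% for Ly96, 68.0% for Tlr2 and 50.2% for Tlr4.

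**Figure D1:**
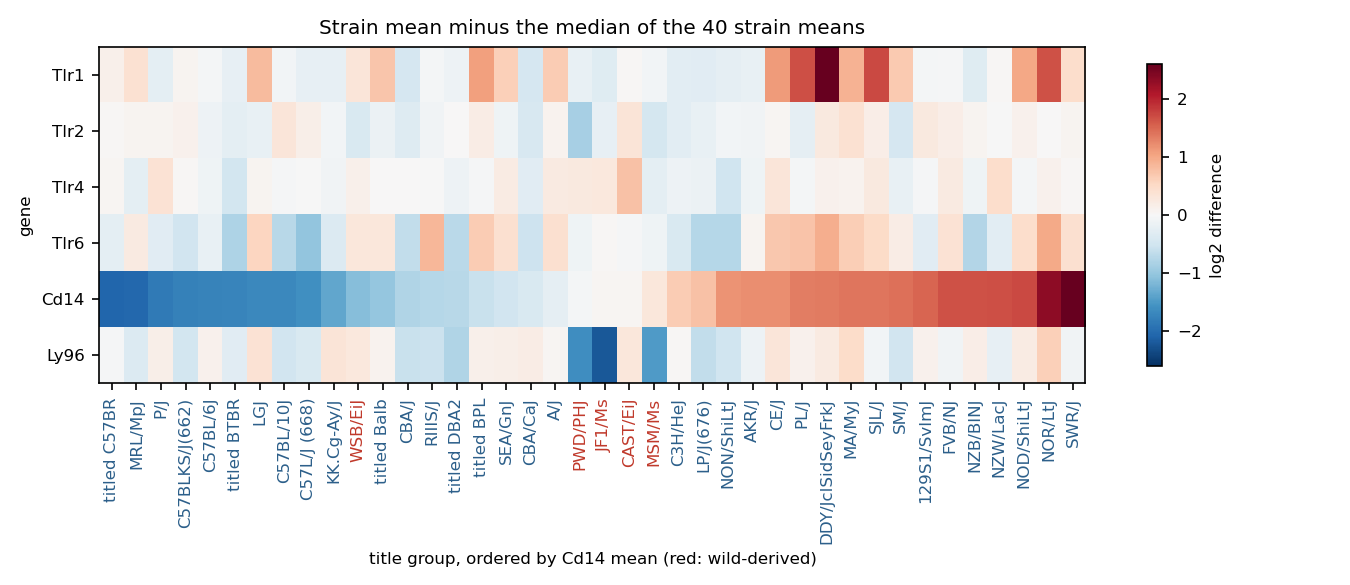
Each cell shows a strain mean minus the median of the 40 strain means of that gene, in log2 units (red above, blue below), for 6 genes in rows and 40 title groups in columns ordered by Cd14, with wild-derived strains named in red. Cd14 runs from -2.06 to 2.58 around its median, Tlr1 and Tlr6 are high in many of the same columns, and Ly96 is lowest in JF1/Ms, PWD/PHJ and MSM/Ms.

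Among the receptors for lipoproteins, Tlr1 was low in most strains and high in a few. The groups with the lowest means were CBA/CaJ with arrays at 4.85 and 4.88 and CBA/J at 4.85 and 4.91. The 5 C57BL/6J arrays read 5.18, 5.21, 5.23, 5.24 and 5.43, close to the median strain mean of 5.30. The highest arrays were those of DDY/JclSidSeyFrkJ at 7.67 and 8.28, above every array of every other group. Below DDY/JclSidSeyFrkJ came SJL/J with arrays at 6.56 and 7.49, PL/J at 6.90 and 7.05, and NOR/LtJ at 6.78 and 7.13. These 3 did not separate from each other, since their arrays interleave. After a step of 0.54 in the ordered means followed CE/J at 6.41, titled BPL at 6.37, NOD/ShiLtJ at 6.31, MA/MyJ at 6.20 and LGJ at 6.13. From there the means fell in small steps through titled Balb at 6.02, SM/J at 5.99, A/J at 5.96, SEA/GnJ at 5.93, SWR/J at 5.76, MRL/MpJ at 5.70 and the wild-derived WSB/EiJ at 5.62. The other 24 groups lay between 4.86 and 5.44. Of the 39 steps between neighbours in this order, 2 exceeded the within-group SD of 0.19: the step up to DDY/JclSidSeyFrkJ and the step up to NOR/LtJ. Tlr1 was dim on the array. Probe sets of 18 genes of other tissues averaged between 4.41 and 7.39, and 39 of the 40 Tlr1 means fell in that range, so the array gives no sign that Tlr1 was detected in the strains at the low end.

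For Tlr6, which shares the pairing partner Tlr2, all 40 means were above that range. Its lowest group was C57L/J (668), with arrays at 7.78 and 8.40, followed by titled BTBR at 8.26 and 8.35 and NZB/BINJ at 8.15 and 8.55. NON/ShiLtJ at 8.37, LP/J(676) at 8.37, C57BL/10J at 8.38, titled DBA2 at 8.41, CBA/J at 8.46, CBA/CaJ at 8.56, C57BLKS/J(662) at 8.61 and C3H/HeJ at 8.72 came next. The 5 C57BL/6J arrays read 8.66, 8.71, 8.86, 9.14 and 9.20. The top of the order was NOR/LtJ with arrays at 10.04 and 10.16, DDY/JclSidSeyFrkJ at 10.01 and 10.10, RIIIS/J at 9.97 and 9.98, and PL/J at 9.73 and 9.98. These arrays did not overlap with those of C57BL/6J, and those of NOR/LtJ and DDY/JclSidSeyFrkJ overlapped with each other. CE/J at 9.80, titled BPL at 9.76, MA/MyJ at 9.74, LGJ at 9.66, SJL/J at 9.61 and NOD/ShiLtJ at 9.56 followed. Of the 39 neighbouring steps, 1 exceeded the within-group SD of 0.18, the step from C57L/J (668) to titled BTBR. The upper C57L/J (668) array, at 8.40, nevertheless lay above both titled BTBR arrays. Most steps between 40 ordered means over this range must be small, so their size cannot tell a gradient from separate sets.

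Tlr1 and Tlr6 followed each other over the strains. Over the 40 strain means Pearson's r was 0.79 and Spearman's rho 0.83, with r = 0.80 over the 35 classical strains and r = 0.80 without the 2 strains farthest from the Tlr1 median. Among the 2329 genes eligible by spread and brightness, each was the closest match of the other. Tlr1 met the brightness minimum, a highest mean of at least 7, only through DDY/JclSidSeyFrkJ at 7.98 and SJL/J at 7.02. The next closest to Tlr1 were the zinc-finger gene Zfp467 (r = 0.59) and the platelet and microglial nucleotide receptor P2ry12 (r = 0.56), and the next closest to Tlr6 were the lysosomal sulfatase Ids (r = 0.66) and the zinc-finger gene Plag1 (r = 0.61). The relation has an exception in RIIIS/J, where Tlr6 was near the top and Tlr1, with arrays at 5.04 and 5.46, was at the level of C57BL/6J. These correlations describe 40 points that share arrays and the relatedness of the strains, and carry no test. Tlr1 and Tlr6 encode similar receptors, and whether either probe set also binds the other's transcript was not tested. The surrounding genes, looked at after this pattern was seen, had weaker correlations. Klf3 and Klhl5, the second measured gene on either side of Tlr6, stood at r = 0.55 and 0.51 with Tlr6 and 0.27 and 0.21 with Tlr1. Over the classical strains they stood at 0.64 and 0.65 with Tlr6 and 0.43 and 0.42 with Tlr1. Fam114a1, next to Tlr6 on the far side from Tlr1, stood at 0.27 with Tlr6 and 0.38 with Tlr1 over all strains. The neutrophil marker mean correlated with Tlr1 at r = 0.53 and with Tlr6 at r = 0.47, over a span of 0.14 between strains. The T and NK cell marker mean correlated with Tlr6 at r = 0.44 (rho = 0.42) and with Tlr1 at r = 0.21 (rho = 0.28). Their part in the result was not tested.

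**Figure D2:**
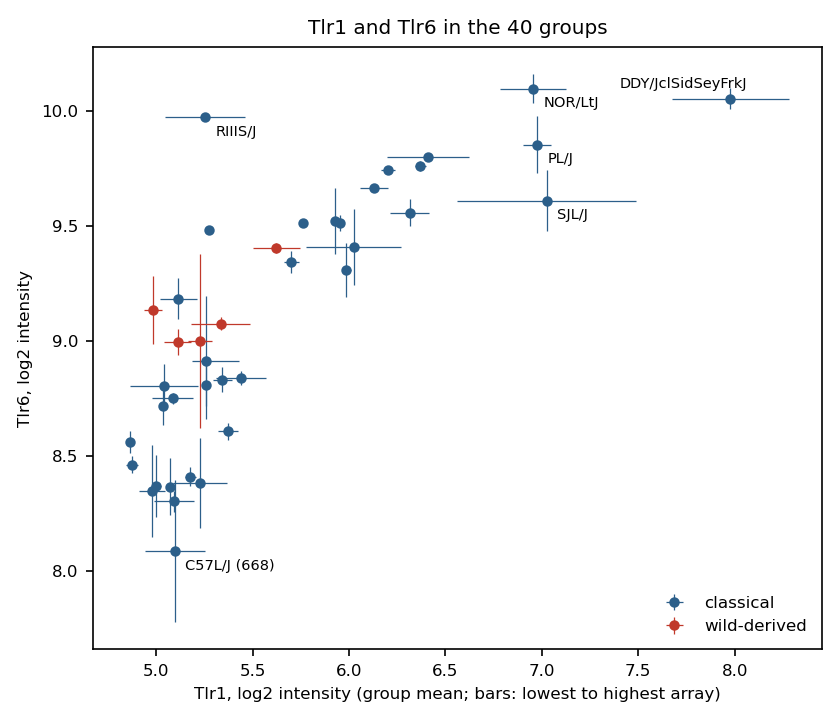
Each point is a title group at its mean Tlr1 (horizontal) and Tlr6 (vertical) log2 intensity, with bars from the lowest to the highest array, blue for classical and red for wild-derived strains. The groups with the highest Tlr1, DDY/JclSidSeyFrkJ, SJL/J, PL/J and NOR/LtJ, all lie above 9.60 for Tlr6, and RIIIS/J stands alone with high Tlr6 and a Tlr1 of 5.25.

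Tlr2, the common partner, had the narrowest range of the measured genes. The SD of its strain means, 0.26, was still at or above that of 80.5% of all probe sets. The lowest group was the wild-derived PWD/PHJ, with arrays at 8.82 and 8.90, below every other array of the series. MSM/Ms followed with arrays at 8.93 and 9.61, which are 0.69 apart, then SM/J at 9.26 and 9.29, CBA/CaJ at 9.25 and 9.36 and WSB/EiJ at 9.27 and 9.39. The highest means were those of MA/MyJ with arrays at 10.05 and 10.17, CAST/EiJ at 9.88 and 10.24, and C57BL/10J at 9.79 and 10.25. The 5 C57BL/6J arrays alone spread from 9.25 to 9.86, a stretch that holds most of the strain means. Apart from the step of 0.41 up from PWD/PHJ, no step between neighbouring strains exceeded the within-group SD of 0.16. The closest genes by pattern were 5031439G07Rik (r = 0.65), Susd1 (r = 0.57) and the lipid-binding protein gene Fabp5 (r = 0.56).

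Tlr4, the lipopolysaccharide receptor, had the next narrowest range. The SD of its strain means, 0.24, was at or above that of 78.3% of all probe sets. NON/ShiLtJ had the lowest mean, with arrays at 8.62 and 8.67, followed by titled BTBR at 8.49 and 8.89. CAST/EiJ had the highest, with arrays at 9.84 and 10.00, above all other arrays. Next were NZW/LacJ at 9.59 and 9.66, P/J at 9.46 and 9.63 and CE/J at 9.44 and 9.52. The 5 C57BL/6J arrays read 8.75, 9.01, 9.04, 9.23 and 9.24, and the MSM/Ms arrays, at 8.39 and 9.44, spanned most of the order of strains. The step up to CAST/EiJ was 0.30 and was the single step above the within-group SD of 0.20. C3H/HeJ, the strain known for a missense allele of Tlr4 that blunts its response to lipopolysaccharide, had arrays at 8.98 and 9.11, inside the C57BL/6J range. Tlr4 was lower where the cell cycle mean was higher (r = -0.52, rho = -0.47 over 40 strains; r = -0.46 over the classical ones). NON/ShiLtJ had both the lowest Tlr4 and the highest cell cycle mean, and the part of cycling precursors in the Tlr4 values was not tested. The genes closest to Tlr4 by pattern were Mfsd4b3-ps (r = 0.70), the lysosomal protein gene Gpr137b (r = 0.67) and Casp1 (r = 0.58), the protease that matures interleukin-1 beta.

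**Figure D3:**
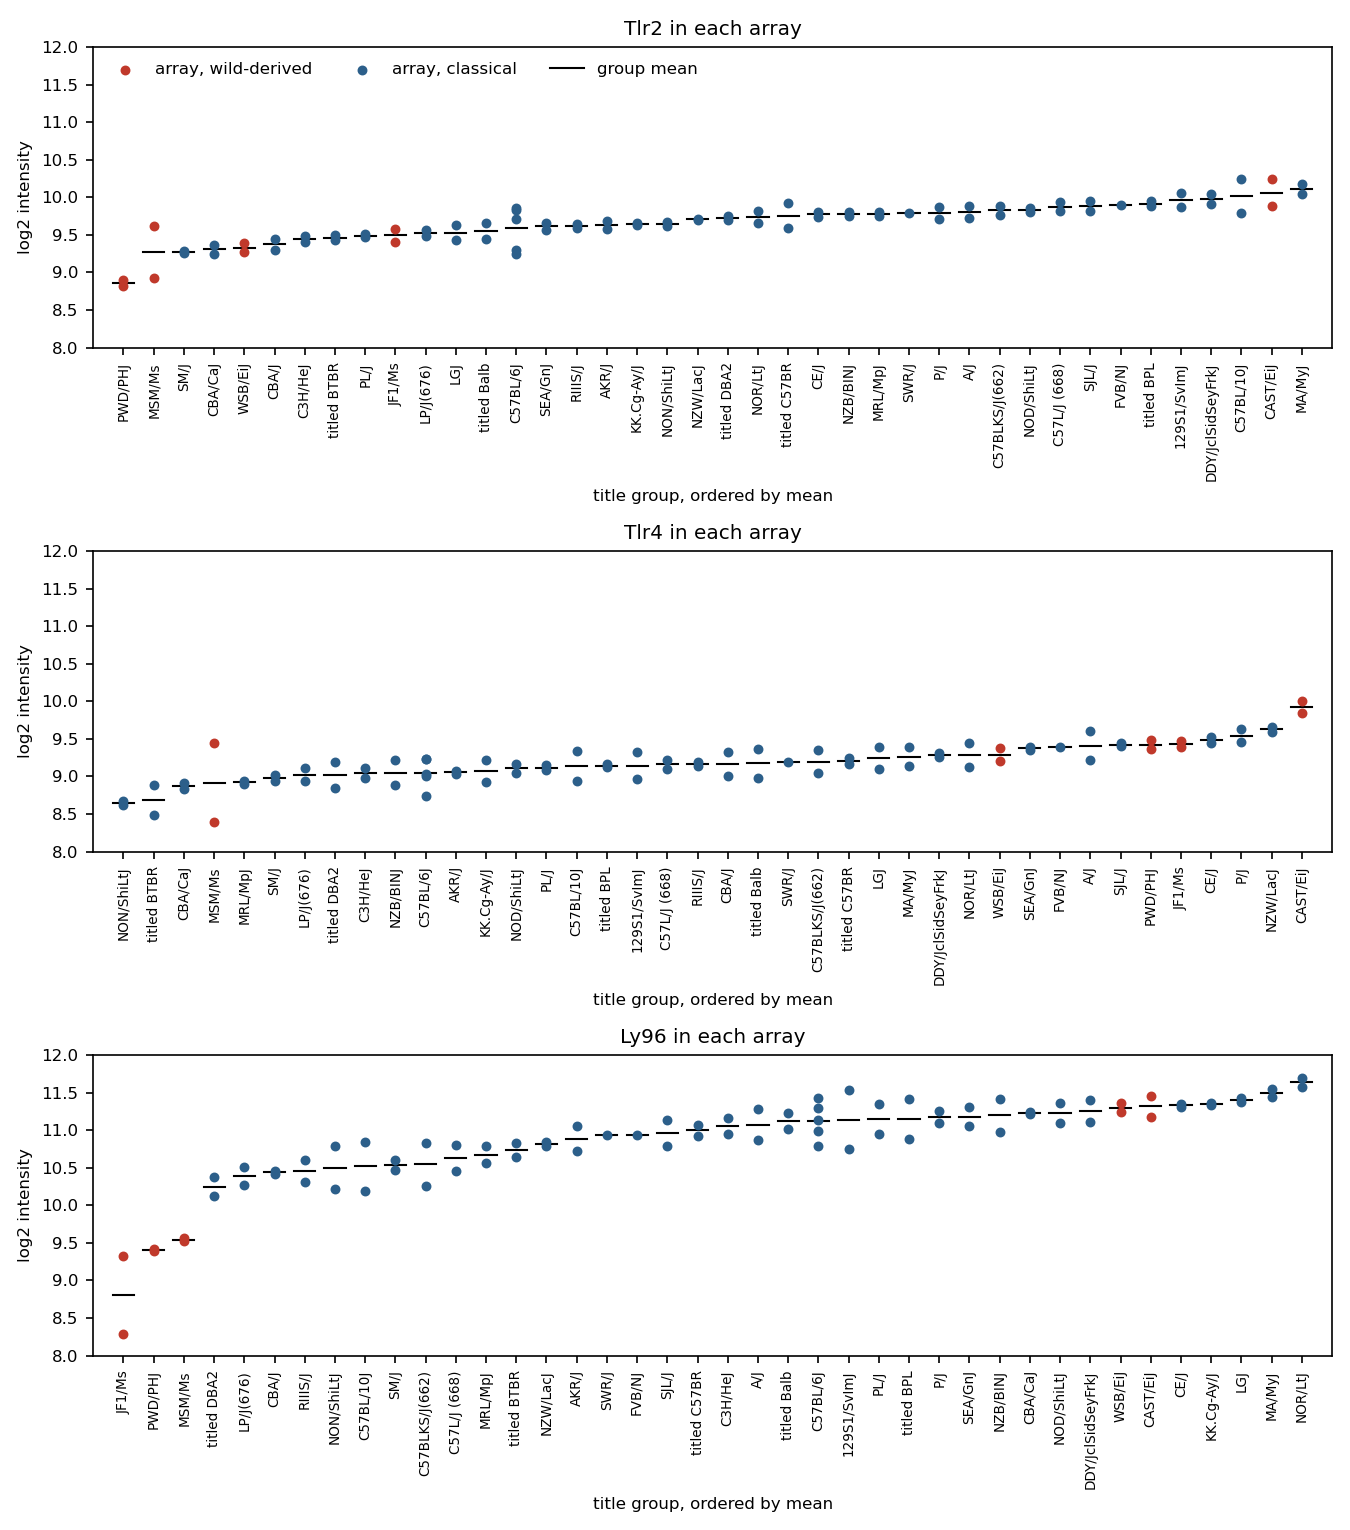
Points are the log2 intensities of single arrays of Tlr2, Tlr4 and Ly96 in the 40 title groups, ordered by group mean (black line), with wild-derived strains in red, on a common axis from 8 to 12. Tlr2 and Tlr4 rise in small steps with PWD/PHJ lowest and CAST/EiJ highest, respectively, while Ly96 has 3 wild-derived strains below 9.60 and all other groups above 10.1.

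Ly96, the subunit that binds lipopolysaccharide on Tlr4, stood apart in 3 strains. The JF1/Ms arrays read 8.29 and 9.33, the PWD/PHJ arrays 9.40 and 9.42, and the MSM/Ms arrays 9.52 and 9.57. All 6 lay below every array of the other 37 groups. The next lowest group was titled DBA2 with arrays at 10.13 and 10.37, a step of 0.71 above MSM/Ms, where the within-group SD was 0.25. From there the means rose in small steps through LP/J(676) at 10.39, CBA/J at 10.44, RIIIS/J at 10.46 and NON/ShiLtJ at 10.50 to MA/MyJ at 11.49 and NOR/LtJ at 11.63, with C57BL/6J arrays between 10.78 and 11.43. The genes closest by pattern, Mfsd6 (r = 0.84), Arhgap26 (r = 0.81) and Rgs3 (r = 0.79), had a lower Spearman rho of 0.61, 0.63 and 0.30, and each had its 3 lowest means in the same 3 strains. Rgs3, a regulator of G protein signalling, read 7.49 in MSM/Ms, 7.49 in JF1/Ms and 8.02 in PWD/PHJ, with the next group at 10.01. Mfsd6 read 9.05 in JF1/Ms, 9.46 in MSM/Ms and 9.54 in PWD/PHJ, with the next group at 10.23, and Arhgap26 8.30, 8.45 and 8.66 in the same order, with the next at 9.17. None of the 6 measured genes nearest to Ly96 on chromosome 1 tracked it, with r between -0.38 and -0.06. With the cell cycle mean Ly96 correlated at r = -0.57 within the classical strains but at r = -0.12 (rho = -0.43) over all 40, and the part of cycling precursors in its values was not tested.

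Cd14 showed the widest differences. The lowest 9 groups, called the floor here, lay between 6.26 and 6.74: titled C57BR at 6.26, MRL/MpJ at 6.28, P/J at 6.49, C57BLKS/J(662) at 6.56, C57BL/6J at 6.60, titled BTBR at 6.61, LGJ at 6.65, C57BL/10J at 6.66 and C57L/J (668) at 6.74. The 5 groups with C57 in their name were all on it. The C57BL/6J arrays read 6.35, 6.54, 6.58, 6.64 and 6.88, inside the range of the genes of other tissues, as were 12 strain means in all, so a floor of this height can lie at background and folds against it are open to that limit. Above it, 16 groups rose gradually through KK.Cg-Ay/J at 6.99, WSB/EiJ at 7.23, titled Balb at 7.31, CBA/J at 7.54, RIIIS/J at 7.58, titled DBA2 at 7.60, titled BPL at 7.76, SEA/GnJ at 7.83, CBA/CaJ at 7.93, A/J at 8.09, PWD/PHJ at 8.28, JF1/Ms at 8.37, CAST/EiJ at 8.38, MSM/Ms at 8.61, C3H/HeJ at 8.99 and LP/J(676) at 9.09. The top 15 groups began with NON/ShiLtJ at 9.50, AKR/J at 9.54, CE/J at 9.54, PL/J at 9.65, DDY/JclSidSeyFrkJ at 9.68, MA/MyJ at 9.72, SJL/J at 9.72, SM/J at 9.76 and 129S1/SvImJ at 9.84. They went on with FVB/NJ at 9.98 (n = 1), NZB/BINJ at 9.99, NZW/LacJ at 10.00 and NOD/ShiLtJ at 10.04, and ended with NOR/LtJ, whose arrays read 10.43 and 10.89, and SWR/J, whose single array read 10.91. The 3 related strains NON/ShiLtJ, NOD/ShiLtJ and NOR/LtJ were thus in this upper set, as were SJL/J, FVB/NJ and SWR/J. The boundaries of these sets were read from the values. Of the 39 neighbouring steps, 3 exceeded the within-group SD of 0.29: those up to C3H/HeJ, NON/ShiLtJ and NOR/LtJ. No such step parted the lowest 9 groups from KK.Cg-Ay/J.

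Arrays of a group agreed on Cd14 closely in most strains, at 9.49 and 9.51 in NON/ShiLtJ and 7.54 and 7.54 in CBA/J, and differed most in NZB/BINJ, at 9.14 and 10.83, and MSM/Ms, at 7.97 and 9.25. The pathway had 6 induced genes with a 2-fold range over the strains. Of these, Cxcl2, Ptgs2 and Il1b had their highest strain mean in NZB/BINJ, so its arrays helped bring them into the set. Among the 6, 5 were higher in the NZB/BINJ array with the higher Cd14. The prostaglandin synthase Ptgs2 stood there at 11.24 against 7.85 in the other array, the neutrophil chemokine Cxcl2 at 10.43 against 5.93 and the chemokine Ccl3 at 11.78 against 8.35. Il1b, at 12.60 against 11.98, and Acod1, at 9.18 against 8.63, differed less, and Tnf ran the other way, at 9.53 against 10.01. Over all 18 induced genes measured, 12 were higher in that array and 6 lower. In MSM/Ms 4 of the same 6 genes were higher in the array with the higher Cd14, the cytokine Il1b most, at 11.46 against 9.82. Ptgs2, Acod1 and Cxcl2 were higher there by 0.34, 0.34 and 0.14, while Tnf and Ccl3 were higher in the other array by 0.38 and 0.29. Over all 18 genes 8 were higher and 10 lower in the MSM/Ms array with the higher Cd14. Whether activation of the cells plays a part in either pair of values was not tested. Over the 40 strains Cd14 followed the mean of 18 induced cytokine genes weakly (r = 0.27, rho = 0.17).

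**Figure D4:**
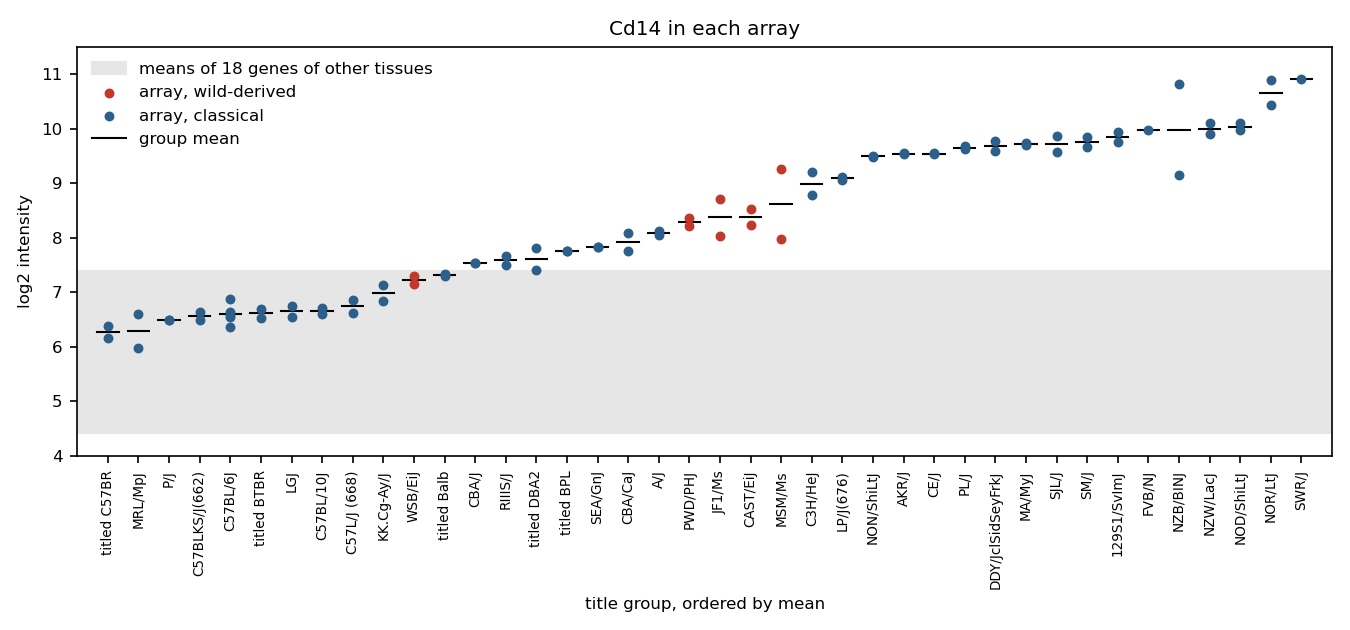
Points are single-array log2 intensities of Cd14 in the 40 title groups ordered by mean (black line), blue for classical and red for wild-derived strains, with a grey band from 4.41 to 7.39 for the means of 18 genes of other tissues. The lowest 9 groups lie between 6.26 and 6.74 and the top 15 from 9.50 to 10.91, with 16 groups between them. NZB/BINJ and MSM/Ms are the groups whose arrays lie farthest apart.

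Cd14 is also a marker of monocytes, most of which lack the Ly6G that the sort required beside CD11b. Over the 40 strains the correlation of Cd14 with the mean of the 14 measured monocyte and macrophage markers was r = 0.13 (rho = 0.12). With the mean of 8 T and NK cell markers, which ran from 5.96 in titled C57BR to 6.78 in FVB/NJ, it was r = 0.33 (rho = 0.37), and 3 of those 8 had a 2-fold range. The part of either cell type in the Cd14 values was not tested. The median gene mean was 6.66 for the monocyte and macrophage markers and 6.54 for the T and NK cell markers. Both lay in the range of genes of other tissues, where signal can be background, which can weaken these correlations. Single monocyte and macrophage markers varied widely on their own: 9 of 14 were called with a 2-fold range, among them Adgre1 between 6.40 in KK.Cg-Ay/J and 9.08 at its highest, and Cd68 between 8.57 in titled DBA2 and 10.43. The gene closest to Cd14 by pattern was Tmco6, which encodes a membrane protein and is the next measured gene on chromosome 18, with r = 0.82 and rho = 0.78 over the 40 strains and r = 0.85 over the classical ones. Tmco6 ran over 1.53 log2 units, at 8.53 in titled C57BR and 8.83 in C57BL/6J against 9.65 in SWR/J and 9.88 in NOR/LtJ. The gene beyond Tmco6, Ndufa2, did not share the pattern (r = -0.05), nor did the gene on the other side of Cd14, E230025N22Rik, to the same extent (r = 0.33). These neighbours were examined after the likeness was seen, and whether the probe sets of Cd14 and Tmco6 read from a common transcript was not tested.

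**Figure D5:**
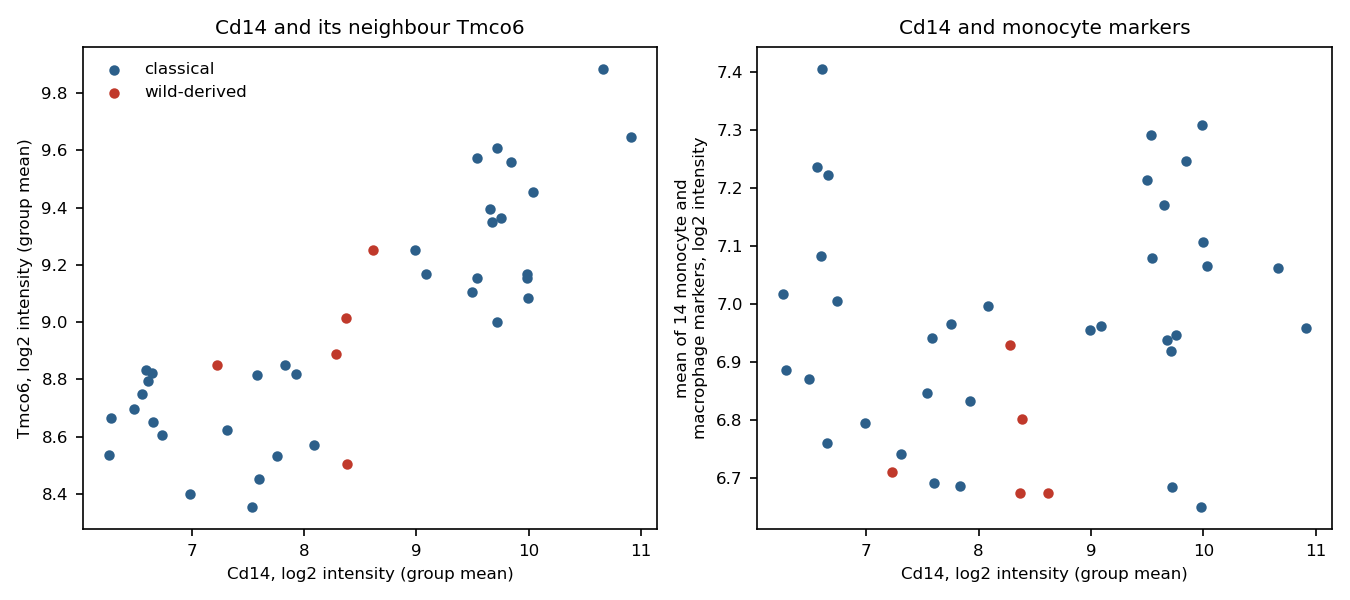
Each point is a title group at its mean Cd14 log2 intensity (horizontal) against the mean log2 intensity of the adjacent gene Tmco6 (left, vertical) or the mean of 14 monocyte and macrophage markers (right, vertical), blue for classical and red for wild-derived strains. Tmco6 rises with Cd14 (r = 0.82), while the marker mean is scattered at each level of Cd14 (r = 0.13).

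The second comparison set each strain against C57BL/6J, the reference strain, with a call at an adjusted p under 0.05 and a difference of at least 1. Of the 234 differences between a strain and C57BL/6J (6 genes in 39 strains), 36 were called higher and 3 lower, where 0.929% and 0.688% of all such differences over all probe sets were called. Cd14 accounted for 26 of the higher calls; C57BL/6J lies on the Cd14 floor, and all 39 comparisons share its 5 arrays. The differences reached 4.31 ± 0.30 (SE) in SWR/J (adjusted p = 4.6e-16, limma) and 4.06 ± 0.23 in NOR/LtJ (adjusted p = 7.0e-20, limma). Tlr1 was higher in 7 strains, namely DDY/JclSidSeyFrkJ by 2.72 ± 0.15 (adjusted p = 3.9e-20, limma), SJL/J by 1.77, PL/J by 1.72, NOR/LtJ by 1.70, CE/J by 1.15, titled BPL by 1.11 and NOD/ShiLtJ by 1.06. C57BL/6J, at 5.26, and 6 of these 7 strains lay in the range of genes of other tissues for Tlr1, all but DDY/JclSidSeyFrkJ, so these are differences in array signal and not exact folds of transcript. Tlr6 was higher in 3 strains, NOR/LtJ by 1.18 ± 0.14 (adjusted p = 1.5e-08, limma), DDY/JclSidSeyFrkJ by 1.14 and RIIIS/J by 1.06. In DDY/JclSidSeyFrkJ and NOR/LtJ both Tlr1 and Tlr6 were called, and in all 7 strains with a Tlr1 call Tlr6 had an adjusted p under 0.05 in the same direction. Without the 2-fold condition, however, Tlr6 was higher at that adjusted p in 16 of the 39 strains. Over all probe sets 10% of such differences, in either direction, met this looser rule. Ly96 was lower in 3 strains, JF1/Ms (difference -2.32 ± 0.20, adjusted p = 1.1e-13, limma), PWD/PHJ (-1.72, adjusted p = 1.2e-09) and MSM/Ms (-1.58, adjusted p = 9.1e-09).

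Tlr2 and Tlr4 had no call in any strain under this rule, with differences from -0.73 to 0.52 for Tlr2 and from -0.40 to 0.87 for Tlr4. At the adjusted p alone, without the 2-fold condition, which held for 10% of all such differences, Tlr2 differed from C57BL/6J in 3 strains and Tlr4 in 2. By strain, DDY/JclSidSeyFrkJ and NOR/LtJ each had 3 of the 6 genes called (Tlr1, Tlr6 and Cd14), while 1.17% and 0.831% of all probe sets were called in those strains. The 3 strains with low Ly96 also had Cd14 called higher, as it was in 26 of the 39 strains. No gene of the 6 was called in 12 strains, among them C57BL/10J, C57BLKS/J(662), C57L/J (668), titled C57BR and WSB/EiJ.

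The third comparison took related or commonly paired strains, with a call at an adjusted p under 0.05. Between the sister strains C57BL/10J and C57BL/6J, Tlr6 was lower in C57BL/10J, whose arrays read 8.19 and 8.58 against 8.66 to 9.20, by a difference of -0.53 ± 0.14 (SE, adjusted p = 0.029, limma), where 2.65% of all probe sets were called. The call ended without the lower C57BL/10J array (difference -0.33, adjusted p = 0.72) and without either of 2 C57BL/6J arrays (-0.46 and -0.47, adjusted p = 0.099 and 0.069), and with all array medians made equal (-0.52, adjusted p = 0.079). The Tlr2 difference, 0.43 ± 0.13, missed the threshold (adjusted p = 0.057, limma). It was 0.20 without the first C57BL/10J array and 0.66 without the other (adjusted p = 0.65 and 0.043), and it passed under quantile normalization (0.38, adjusted p = 0.049), in a fit of the brighter probe sets (mean 7 or more; adjusted p = 0.035) and in 6 of the 81 fits with an array left out. Between CBA/J and CBA/CaJ, where 1.71% of all probe sets were called, no gene of the 6 passed. Ly96 came closest, with arrays at 10.42 and 10.46 in CBA/J against 11.21 and 11.24 in CBA/CaJ (difference -0.79 ± 0.24, adjusted p = 0.078, limma).

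NOD/ShiLtJ, which develops autoimmune diabetes, and NOR/LtJ, its resistant relative, differed in Tlr1, with arrays at 6.21 and 6.42 in NOD/ShiLtJ against 6.78 and 7.13 in NOR/LtJ (difference -0.64 ± 0.18, adjusted p = 0.022, limma; 5.56% of all probe sets were called). The Tlr1 call ended without the first NOD/ShiLtJ array (-0.74, adjusted p = 0.069), the second one (-0.54, adjusted p = 0.18) or the second NOR/LtJ array (-0.47, adjusted p = 0.32), and under quantile normalization (-0.55, adjusted p = 0.070) and equal array medians (-0.57, adjusted p = 0.072). The differences in Tlr6, -0.54 ± 0.17 (adjusted p = 0.052), and Cd14, -0.62 ± 0.27 (adjusted p = 0.18), did not pass in limma. Tlr6 passed under quantile normalization (-0.56, adjusted p = 0.015), in the brighter probe sets (adjusted p = 0.041), and in 13 of the 81 fits with an array left out. Cd14 was -0.39 without the second NOR/LtJ array (adjusted p = 0.62), and it passed without MSM/Ms and NZB/BINJ, whose arrays differ most (adjusted p = 0.018).

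Between NZB/BINJ and NZW/LacJ, the parents of a classical lupus-prone hybrid, 45.5% of all probe sets were called, and the NZB/BINJ arrays are the least alike of the series. In limma Tlr4 was lower in NZB/BINJ, at 8.88 and 9.22 against 9.59 and 9.66 (difference -0.58 ± 0.19, adjusted p = 0.012), and so was Tlr6, at 8.15 and 8.55 against 8.78 and 8.89 (-0.48 ± 0.17, adjusted p = 0.020). Both calls ended under quantile normalization (-0.19 and -0.13, adjusted p = 0.40 and 0.53), without the first NZB/BINJ array (-0.41 and -0.28, adjusted p = 0.21 and 0.35) and without the first NZW/LacJ array (-0.54 and -0.43, adjusted p = 0.098 and 0.15). Cd14 differed by -0.01 ± 0.27 (adjusted p = 0.97), with the 2 NZB/BINJ arrays on either side of those of NZW/LacJ. With a single NZB/BINJ array it passed in opposite directions, at 0.83 without the first (adjusted p = 0.024) and at -0.85 without the second (adjusted p = 0.0068).

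C3H/HeJ was set against the mean of its relatives CBA/J and CBA/CaJ because of its Tlr4 allele, and 1.53% of all probe sets were called. Tlr4 transcript did not pass the test, at 8.98 and 9.11 in C3H/HeJ, 9.01 and 9.33 in CBA/J and 8.84 and 8.91 in CBA/CaJ (difference 0.02 ± 0.16 SE, adjusted p = 1.00, limma). Cd14 was higher in C3H/HeJ, at 8.78 and 9.20 against 7.54 and 7.54 in CBA/J and 7.76 and 8.09 in CBA/CaJ, with no overlap (1.26 ± 0.24, adjusted p = 4.4e-04, limma). The Cd14 call ended without the first C3H/HeJ array (1.05, adjusted p = 0.12).

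The fourth comparison set the 5 wild-derived strains against the 35 classical ones, with each strain mean as 1 replicate. The test treats strains as independent and takes no account of their relatedness. Ly96 was the 1 gene of the 6 called, at 10.08 ± 1.16 (SD, n = 5) in wild-derived against 10.96 ± 0.35 (SD, n = 35) in classical strains (difference -0.88 ± 0.23 SE, adjusted p = 0.0081, limma), where 5.55% of all probe sets were called lower and 6.64% higher in wild-derived strains. The wild-derived strains did not behave as one group: JF1/Ms, PWD/PHJ and MSM/Ms lay below all classical strains, while CAST/EiJ, with arrays at 11.18 and 11.45, and WSB/EiJ, at 11.24 and 11.36, lay near the upper end of the classical range, which ends at 11.63. The call ended without JF1/Ms (-0.57, adjusted p = 0.13), MSM/Ms (-0.75, adjusted p = 0.065) or PWD/PHJ (-0.71, adjusted p = 0.070). The array's probes follow the reference strain, and whether sequence differences under the Ly96 probes lower these readings was not tested.

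The Tlr2 difference between wild-derived and classical strains, -0.30 ± 0.11 (SE), missed the threshold (adjusted p = 0.066, limma); without CAST/EiJ, whose Tlr2 was high, it passed at -0.47 (adjusted p = 0.0029). The Tlr4 difference was 0.24 ± 0.11 (adjusted p = 0.15), with 4 of 5 wild-derived strains above the classical median; without MSM/Ms, whose arrays disagree, the difference was 0.36 (adjusted p = 0.043). Differences in Tlr1 (-0.42 ± 0.33, adjusted p = 0.44), Cd14 (-0.23 ± 0.65, adjusted p = 0.86) and Tlr6 (0.01 ± 0.26, adjusted p = 0.99) were smaller than or close to their errors in limma. For Cd14, 4 of the 5 wild-derived means lay between 8.28 and 8.61, near the middle of the classical strains, and WSB/EiJ lay at 7.23.

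The rest of the pathway is given for comparison from lists chosen by function. Their counts stand beside the 56% of all probe sets called and 24.5% called with a 2-fold range, or 84.9% called and 42.5% with a 2-fold range among those with a mean of at least 7. Of 6 measured endosomal Toll-like receptors, which read nucleic acids or, for some, microbial proteins, 4 were called among strains in limma and 2 with a 2-fold range: Tlr7, a receptor for single-stranded RNA, from 7.32 in CAST/EiJ to 9.06 in NOD/ShiLtJ, and Tlr8 from 10.21 in NON/ShiLtJ to 11.59 in PWD/PHJ. Of 11 measured co-receptors and chaperones, 9 passed the test, close to the share among the brighter probe sets, and 6 of these had a 2-fold range. The lipopolysaccharide-binding protein gene Lbp, which supplies Cd14 with its ligand, ranged from 8.08 in MSM/Ms to 12.05 in WSB/EiJ (adjusted p = 8.5e-25, limma). The chaperones that fold Toll-like receptors, Cnpy3 and Hsp90b1, ran from 8.62 in NZB/BINJ to 10.62 in PWD/PHJ and over 8.63 (NOR/LtJ) up to as much as 10.29 (NON/ShiLtJ), and Nrros, a negative regulator, from 8.46 in MSM/Ms to 9.86 in SM/J.

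All 18 measured adaptors and kinases, each with a mean above 7, were called in limma, beside 84.9% of the probe sets that bright, and 2 had a 2-fold range: the transcription factor Irf5, from 6.94 in PWD/PHJ to 8.90 in LGJ, and the Tlr4 adaptor Ticam2, from 7.11 in MRL/MpJ to 8.79 in NZW/LacJ. The adaptor Myd88, used by all the surface receptors, stayed between 11.18 in WSB/EiJ and 11.57 in 129S1/SvImJ. The kinase Map3k7 ran from 8.71 in NZB/BINJ to 9.70 in JF1/Ms, and the NF-kB subunit Rela from 9.95 in JF1/Ms to 10.82 in MRL/MpJ. Of 14 measured brakes on the pathway 12 were called and 2 had a 2-fold range, Nfkbia from 10.37 in PWD/PHJ to 11.43 in FVB/NJ and Nfkbib from 9.37 in NZB/BINJ to 10.47 in MRL/MpJ. Socs3 (7.71 to 8.61) and Cyld (9.30 to 10.12) varied by less than 2-fold. Of 18 induced cytokine and effector genes 12 were called and 6 had a 2-fold range, among them Ccl3 from 6.91 in MSM/Ms to 10.43 in SM/J and the itaconate-forming enzyme gene Acod1 from 6.95 in NZW/LacJ to 9.18 in SM/J. The median SD of strain means was 0.30 over the co-receptors and chaperones and 0.15 over the endosomal receptors. It was 0.18 over the adaptors and kinases, 0.15 over the brakes and 0.16 over the induced genes. Over the surface receptors and their lipid-binding partners it was 0.57, with Tlr2 at 0.26 and Tlr4 at 0.24 among them.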

How the data were processed

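The deposited table holds linear probe set intensity values; the authors' tools, per the submitters' processing notes, were Affymetrix Power Tools and RMA. RNA was extracted with TriZol and biotin-labelled, per the labels' protocols. For the genome build behind the array annotation: not given in the sources used here. Intensities were converted to log2 with no further scaling, and probe sets with 1 platform symbol were named (21425 with 1 symbol, 1399 with several, 2098 with none); for a gene with several, the brightest was used. No 2 arrays were identical.

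limma 3.58.1 in R 4.3.3 (lmFit, eBayes; 41 residual and 7.93 prior degrees of freedom) gave the F test over 40 groups and the contrasts; origin was tested on strain means. The scripts were tested on simulated data. Members and lists were chosen with earlier results of these data known. Named genes were every member, up to 4 called genes per list with the largest SD and a highest mean of at least 7, and the 3 genes most correlated with each member (SD at least 0.3, highest mean at least 7). Named outside this rule, after values were seen, were Myd88, chromosomal neighbours and the induced genes in NZB/BINJ and MSM/Ms. Neighbour order came from a gene table of GRCm38.p6. Where a group's title and background label conflict, the title was used. Arrays are few per strain, which limits precision. Alternatives were quantile normalization, equal array medians, a trended robust prior, a filter at a mean of 7, a replicate block, each array, the conflicting or the single-array groups left out, grouping by background label, each wild-derived strain left out and, added after seeing the data, MSM/Ms and NZB/BINJ left out together.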

Additional observations from a re-analysis of the deposited data

Results flagged for a closer look

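Among the 12 sets of 5 values examined (the C57BL/6J arrays and the wild-derived strain means of each of the 6 genes), 2 had an extreme value whose gap to the nearest other, as a share of the whole range, exceeded Dixon's 95% critical value for 5 values. In the wild-derived strain means of Cd14 this share was 0.761, because WSB/EiJ at 7.23 lay apart from the other 4 at 8.28 to 8.61. In the C57BL/6J arrays of Tlr1 it was 0.771, because 1 array at 5.43 lay above the other 4 at 5.18 to 5.24. Chance alone would mark about 1 set in 20.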

How the results depend on the processing

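With each of 81 arrays left out and under 14 other settings, 3187 of 3272 recomputed values kept their direction and side of the threshold (counts: stayed within 1.5 times). All 6 genes were called among strains with each array left out, and 5 in the brighter probe sets (mean of at least 7), where Tlr1 is not tested. The 39 calls against C57BL/6J became 32 to 39 under other settings and 38 to 40 with arrays left out. The 5 calls between close pairs became 8 under quantile normalization and 3 (without the first NZW/LacJ array) to 7 with an array left out. The count of genes called between origins, 1, became 2 in the brighter probe sets, 2 without CAST/EiJ, 0 without JF1/Ms and 0 without PWD/PHJ, and 1 to 2 with an array left out; over all probe sets, 3039 calls became 1971 without JF1/Ms and 1796 without MSM/Ms. Without MSM/Ms and NZB/BINJ the Ly96 difference between origins was -0.74 (adjusted p = 0.065, limma). Direction turned for Cd14 between NZB/BINJ and NZW/LacJ (0.34 under quantile normalization; -0.85 to 0.83 with an array left out, both ends called, at adjusted p = 0.0068 and 0.024, limma), for Tlr4 between C3H/HeJ and the CBA strains (-0.026 under quantile normalization, -0.063 by background label, -0.060 to 0.10 with an array left out), for Tlr6 between origins (-0.020 without the conflicting groups, -0.0038 by background label, -0.062 without WSB/EiJ, -0.068 to 0.084 with an array left out) and for Cd14 between origins (0.011 without WSB/EiJ); none of these was called with all arrays in the main setting, and the cause was not tested. Replicate numbers showed no shift common to all groups: over 35 groups numbered 1 and 2, deviations of same-numbered arrays correlated at a median of 0.0037. These correlations went down to -0.50, and 24.9% of them exceeded 0.1, so pairing within part of the groups cannot be judged from the median. As a block, the replicate number moved 1 call: Tlr6 between NOD/ShiLtJ and NOR/LtJ passed at -0.54 (adjusted p = 0.043, limma). With 1 or 2 arrays in most strains, a group left with 1 array is assumed to vary like the others, and values near background limit Tlr1 and the lowest Cd14 levels.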
